A study of Homo sapiens with 12 samples.

Results

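The response of THP-1 cells to the STING agonist 3'-3'-cGAMP was compared with untreated THP-1 cells over all genes, with the weight on genes outside the classic interferon-stimulated set. THP-1 is an established human monocytic leukemia line. The comparison uses 6 of the 12 RNA sequencing libraries of the series: 3 of cells kept 8 h with 3'-3'-cGAMP at 1 μg/mL, which the study used as its positive control for antiviral signaling, and 3 of untreated cells, whose harvest time and vehicle are not given in the sources used here. The other 6 libraries are of cells given 20 or 50 μM chlorquinaldol, an antiseptic hydroxyquinoline, for 8 h. Genes were taken as tested after a filter on low counts, which left 16628, and 16431 of these lie outside a list of 210 classic interferon-stimulated genes, of which 197 were tested. The labels do not give the source of the replicates, and p-values measure only the spread between these libraries, and effects of solvent or harvest time cannot be told apart from those of cGAMP.

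Cyclic dinucleotides bind STING, an adaptor protein of the endoplasmic reticulum, which then recruits the kinase TBK1. TBK1 activates the transcription factor IRF3, and IRF3 together with NF-kB switches on the gene for interferon beta. Secreted interferon acts back on the cells through its receptor, JAK kinases and STAT proteins, which bind interferon-stimulated response elements (ISRE) in gene promoters. In monocytes the same pathway can also reach cytokine, chemokine and cell death genes, and 3'-3'-cGAMP is the bacterial form of the dinucleotide that mammalian cGAS makes with another linkage.

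Libraries held 18910085 to 19023005 gene-assigned estimated counts in untreated cells and 18914542 to 18979948 with cGAMP. Correlations of log2 levels ran from 0.989 to 0.991 within the groups and from 0.97 to 0.973 between them. The cells carried their labelled identity: 11 of 12 monocytic markers stood at 5 CPM (counts scaled to a common library size) or more in untreated cells, and of 27 markers of other lineages 9 passed the filter on low counts and 7 (CD3E, MS4A1, KRT19, COL1A2, LUM, HBB and PF4) were at 0 in all 6 libraries. The summed level of 6 T and NK cell markers was 8.64 to 10.4 CPM in untreated cells and 10.2 to 11.7 CPM with cGAMP, nearly all of it NKG7, at 8.44 to 10.3 and 10 to 11.4 CPM. Epithelial, fibroblast and erythroid or megakaryocytic markers each summed to at most 4.1 CPM in any of the 6 libraries. The summed level of 6 B cell markers was 7.53 to 8.54 CPM in untreated cells and 52.0 to 72.4 CPM with cGAMP. PAX5 was the only member called higher, and CD79B was called lower (−0.44, adjusted p = 0.0465), a call lost in DESeq2 (0.15) and with any 1 library left out (0.0566 to 0.136). In bulk RNA, fewer cells of a kind and less RNA per cell cannot be told apart.

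Promoter sequences are shown first, since the response element of interferon signaling was found in a larger share of the classic genes than of the other risers. RefSeq promoter windows (GRCh38.p14, 250 bases before to 50 after a start, several windows for some genes) matched 11490 of the 16628 tested genes by symbol. The ISRE was searched on both strands as GAAA, any 2 bases and GAAA. It occurred in the windows of 53.8% of 106 classic genes that were at least 2-fold higher with cGAMP. Outside the classic list it occurred in 7.55% of 106 genes at least 4-fold higher and in 11.6% of 189 genes 2- to 4-fold higher. The share was 4.09% over all tested genes with a window, below that of the other risers, 3.22% over genes not called and 2.31% over 1513 genes called lower. Over all RefSeq genes with a window, tested or not, it was 4.38%. Counted by window and not by gene, it was 3.57% of all 35116 windows. A match is a description of letters and not a binding site, and risers without one are not thereby placed outside interferon control. These 4 stretches, 5′ to 3′ on the gene's strand and ending just before a transcription start, show ISRE matches in capitals in IFIT1, a classic gene given for reference, and in IL1RN, TFEC and CD209, which are outside the classic list. The IL1RN stretch lies before the second of 3 starts in the table and the TFEC stretch before a start inside the gene's span.
IFIT1 (chr10:89392473-89392622, plus strand): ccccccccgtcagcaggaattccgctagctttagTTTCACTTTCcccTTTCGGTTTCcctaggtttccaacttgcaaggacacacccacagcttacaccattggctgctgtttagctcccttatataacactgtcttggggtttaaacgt
IL1RN (chr2:113127339-113127488, plus strand): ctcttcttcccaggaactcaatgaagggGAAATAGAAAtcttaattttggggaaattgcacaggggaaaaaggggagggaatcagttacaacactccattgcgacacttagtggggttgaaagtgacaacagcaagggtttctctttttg
TFEC (chr7:116030764-116030863, minus strand): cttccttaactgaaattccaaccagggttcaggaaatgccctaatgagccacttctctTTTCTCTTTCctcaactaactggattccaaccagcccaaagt
CD209 (chr19:7747535-7747634, minus strand): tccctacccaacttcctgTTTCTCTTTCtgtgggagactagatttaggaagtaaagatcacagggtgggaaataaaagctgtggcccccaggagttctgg

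The matches begin at −116 and −103 from the start in IFIT1, at −122 in IL1RN, at −42 in TFEC and at −82 in CD209. No ISRE match lies in the windows of the next pair, IFNB1 and TRIM31, which had the largest increases of all protein-coding genes outside the classic list with at least 5 CPM. The IFNB1 stretch does hold GAAA runs, set further apart than the 2 bases searched for. The lack of a match therefore does not show that IRF3 has no site there. In the IFNB1 and TRIM31 stretches the capitals mark the NF-kB motif, searched on both strands and present in 5.91% of all windows. By gene it occurred in 9.43% of those at least 4-fold higher outside the classic list, 14.3% of those 2- to 4-fold higher and 16.7% of 54 genes at least 2-fold lower, against 8.83% of all tested genes with a window. In TRIM31 2 overlapping matches begin at −134 and −133 from the start, and the capitals cover both.
IFNB1 (chr9:21077943-21078042, minus strand): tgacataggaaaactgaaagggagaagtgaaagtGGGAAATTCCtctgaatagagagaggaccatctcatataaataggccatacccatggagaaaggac
TRIM31 (chr6:30113091-30113240, minus strand): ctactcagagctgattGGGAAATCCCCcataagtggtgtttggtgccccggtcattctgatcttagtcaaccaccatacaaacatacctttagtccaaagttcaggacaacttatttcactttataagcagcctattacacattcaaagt

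Among the genes that fell, EGR1 is shown for its serum response elements, the CArG box, in capitals. This motif, also searched on both strands, occurs in 1.29% of all windows, and the EGR1 window holds 2 matches, at −105 and −83. By gene it occurred in 1.85% of those called lower, against 1.54% of all tested genes with a window. It occurred in 1.89% of genes at least 4-fold higher outside the classic list and 4.72% of classic genes at least 2-fold higher. EGR1 is thus a single example and does not stand for the genes that fell.
EGR1 (chr5:138465329-138465478, plus strand): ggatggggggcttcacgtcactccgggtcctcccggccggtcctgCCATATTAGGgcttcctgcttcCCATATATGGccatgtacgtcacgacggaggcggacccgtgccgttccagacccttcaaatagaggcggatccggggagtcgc

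With cGAMP, 1921 genes were called higher (11.6% of those tested) and 1954 were called lower (11.8%), with an edgeR adjusted p below 0.05. The classic list held 178 of the higher calls (90.4% of its tested genes) and 0 of the lower ones, with 0 members lower at an unadjusted p under 0.05 in edgeR and 0 called lower by DESeq2 or limma. Outside it, 1743 genes rose (10.6%) and 1954 fell (11.9%). The balance of directions moved with the processing, so the near-even split is not a firm result. Of all calls, 49.6% were higher in this fit, 40.2% with upper-quartile factors, 62.5% with no filter and 68.9% without cGAMP replicate 2. The median log2 change over all genes was −0.053 here, −0.093 with upper-quartile factors and 0.000 with no filter. Sizes differed between the directions: 470 genes outside the list rose at least 2-fold (2.86%, against 3.71% of all tested genes), while 104 fell at least 2-fold (0.633%, against 0.625% of all tested genes). The median log2 change was 0.58 among the higher calls outside the list and −0.42 among the lower calls, and 75.6% of the lower calls were under 1.5-fold. The count of lower calls also hung on single libraries. It was 1173 without untreated replicate 1 and 1161 without untreated replicate 2. It was 1141 without cGAMP replicate 1 and 858 without cGAMP replicate 2. Without the second 50 μM chlorquinaldol library it was 1294, beside 2230 higher calls. That library enters through the filter and the scaling factors as well as the shared spread.

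**Figure D1:**
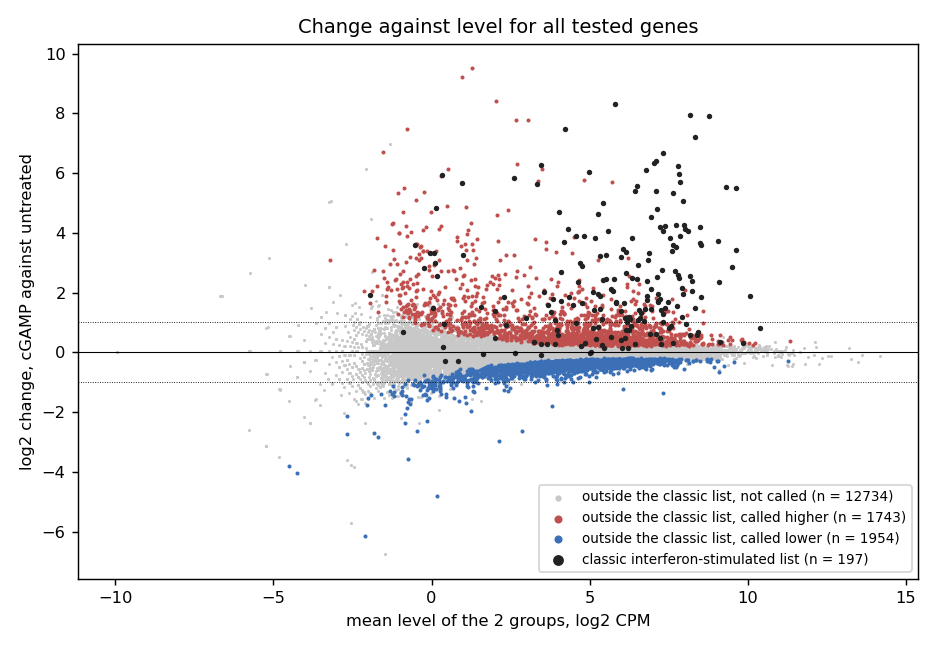
Log2 change with cGAMP against untreated cells (vertical axis) plotted against the mean level of the 2 groups in log2 CPM (horizontal axis) for every tested gene, with dotted lines at 2-fold. Classic genes (black) sit almost all above 0, while outside the list (red and blue) increases reach much further from 0 than decreases.

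In shares of all counts, the classic list went from 1.09%, 1.05% and 1.05% in the untreated libraries to 4.28%, 4.24% and 4.55% with cGAMP. Genes called at least 2-fold higher outside the list held 0.505%, 0.494% and 0.504% of counts in untreated cells and 1.36%, 1.32% and 1.41% with cGAMP. These sums include the genes chosen for their rise, so they describe size and carry no test. Of the genes outside the list, 805 (4.9%) were higher with cGAMP than in untreated cells and in each chlorquinaldol group, against 155 of 197 classic genes and 5.77% of all tested genes.

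Small changes followed base composition. Split by the GC content of the longest transcript, 20.3% of genes outside the classic list in the lowest of 5 equal bins were called higher and 2.16% lower, while in the highest bin 5.19% were called higher and 21.6% lower. The median log2 change fell from 0.105 to −0.187 across the bins, and a slope of the same sign was present in each cGAMP library against the untreated mean: from 0.188 to −0.249 in replicate 1, from 0.079 to −0.146 in replicate 2 and from 0.034 to −0.122 in replicate 3. An offset for GC content per library, an alternative chosen after the trend was seen, gave 2085 higher and 1447 lower calls. It kept 86.8% of the higher and 58.9% of the lower calls, but 95.5% of the 617 calls that were at least 2-fold higher and 75% of the 104 that were at least 2-fold lower. Whether GC content or the cells' response set the small decreases was not tested, and this limit holds for every change under about 1.5-fold.

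**Figure D2:**
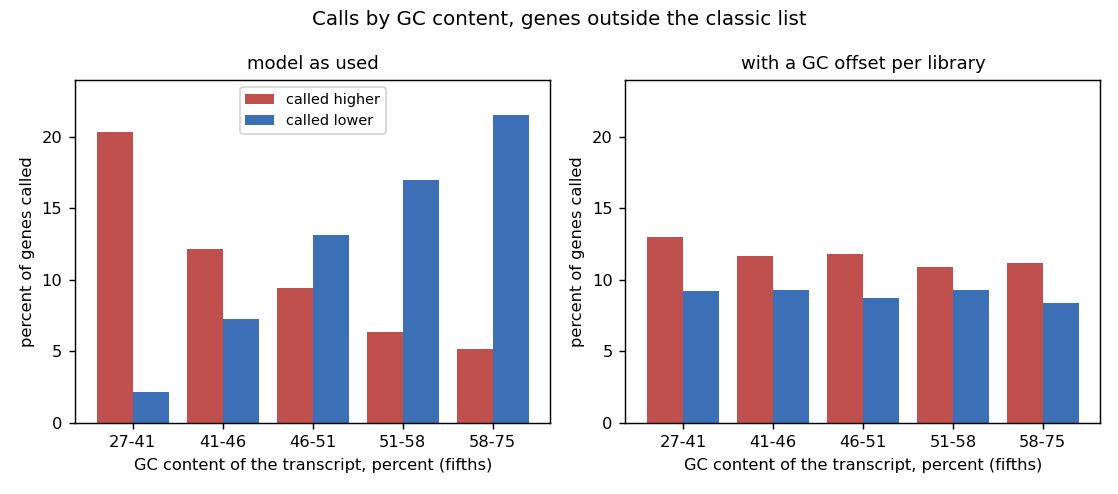
Percent of genes outside the classic list called higher (red) or lower (blue) in 5 equal bins of transcript GC content, from the model used throughout (left) and with a GC offset per library (right). On the left the higher calls decline from 20.3% to 5.19% and the lower calls climb from 2.16% to 21.6%, and on the right both are nearly level.

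The largest increases outside the classic list came in genes that were close to silent in untreated cells. TRIM31, a ubiquitin ligase gene on chromosome 6 (GENCODE 29 on GRCh38, 30102897 to 30113106), had 1 count over the 3 untreated libraries and 125, 156 and 176 counts with cGAMP, 476-fold more (95% interval from counting error 85 to 18840). IFNB1, the gene of interferon beta on chromosome 9 (21077105 to 21077963), had 0, 3 and 0 counts in untreated cells and 229, 217 and 262 with cGAMP, 246-fold more (interval 83.8 to 1195). ENPP2, which encodes the lysophosphatidic acid producing enzyme autotaxin, had 0 counts in each untreated library and 70, 79 and 73 with cGAMP, at least 77.1-fold higher when the untreated group is set to the floor of 3 counts. IFNL1, a type III interferon gene, had 0 counts in untreated cells and 19, 22 and 25 with cGAMP, at least 22.9-fold higher. ACOD1, whose enzyme makes itaconate in activated macrophages, had 0 counts untreated and 14, 11 and 14 with cGAMP, at least 13.5-fold higher. In all, 19 genes had at most 3 counts over the untreated libraries and at least 10 in each cGAMP library. Of these, 18 lie outside the classic list, as do 16431 of all 16628 tested genes. The 18 include the cancer-testis genes CSAG1 and CSAG3 and the chemokine gene CCL13. Intervals and floors cover counting error only.

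Several genes better known from other tissues rose from low levels to more than 10 CPM. NEXN, which encodes the actin-binding protein nexilin of muscle, stood at 1.51, 2.15 and 2.23 CPM in untreated cells and at 102, 96.8 and 110 CPM with cGAMP (log2 change 5.71 ± 0.15, adjusted p = 2.05e-14). The 20 and 50 μM chlorquinaldol groups averaged 1.76 and 1.3 CPM. PAX5, the B lineage transcription factor gene on chromosome 9 (36833275 to 37034185), went from 1.16, 0.871 and 0.983 CPM to 46.8, 52.1 and 66.7 CPM (log2 change 5.77 ± 0.19, adjusted p = 2.38e-13). MS4A1, another B lineage gene, remained at 0 in the same libraries. STAP1, an adaptor protein of growth factor and B cell receptor signaling, rose from 0.251, 0.41 and 0.259 CPM to 23.0, 19.7 and 23.5 CPM (log2 change 6.14 ± 0.22, adjusted p = 4.92e-13). TMCC3, a membrane protein of the endoplasmic reticulum, rose from 0.101, 0.103 and 0.259 CPM to 12.5, 12.8 and 13 CPM (log2 change 6.32 ± 0.29). SEPTIN4, a cytoskeletal GTP-binding protein, rose from 0.352, 0.359 and 0.414 CPM to 17.3, 18.5 and 24.7 CPM (log2 change 5.73 ± 0.21). Libraries that do not overlap were a condition for naming these 5 genes, so their separation adds no support.

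Among genes of at least 5 CPM with libraries that do not overlap, the remaining members of the 12 largest protein-coding increases include several developmental signaling genes. HESX1, a homeobox repressor of forebrain and pituitary development, averaged 2.96 ± 0.495 CPM (SD, n = 3) in untreated cells and 43.0 ± 2.71 CPM with cGAMP. FZD4, a Wnt receptor, averaged 1.77 ± 0.554 and 23.1 ± 3.25 CPM (log2 change 3.70 ± 0.17, adjusted p = 2.33e-11). P3H2, a collagen prolyl hydroxylase, SEMA3D, a secreted guidance factor, and EPHB2, an ephrin receptor, changed by 4.77, 4.61 and 3.79 on the log2 scale. P3H2 and SEMA3D were also above 2 CPM in both chlorquinaldol groups, yet lower there than with cGAMP (log2 difference against 50 μM 1.31 for P3H2 and 1.81 for SEMA3D, adjusted p = 1.1e-05 and 6.2e-08).

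**Figure D3:**
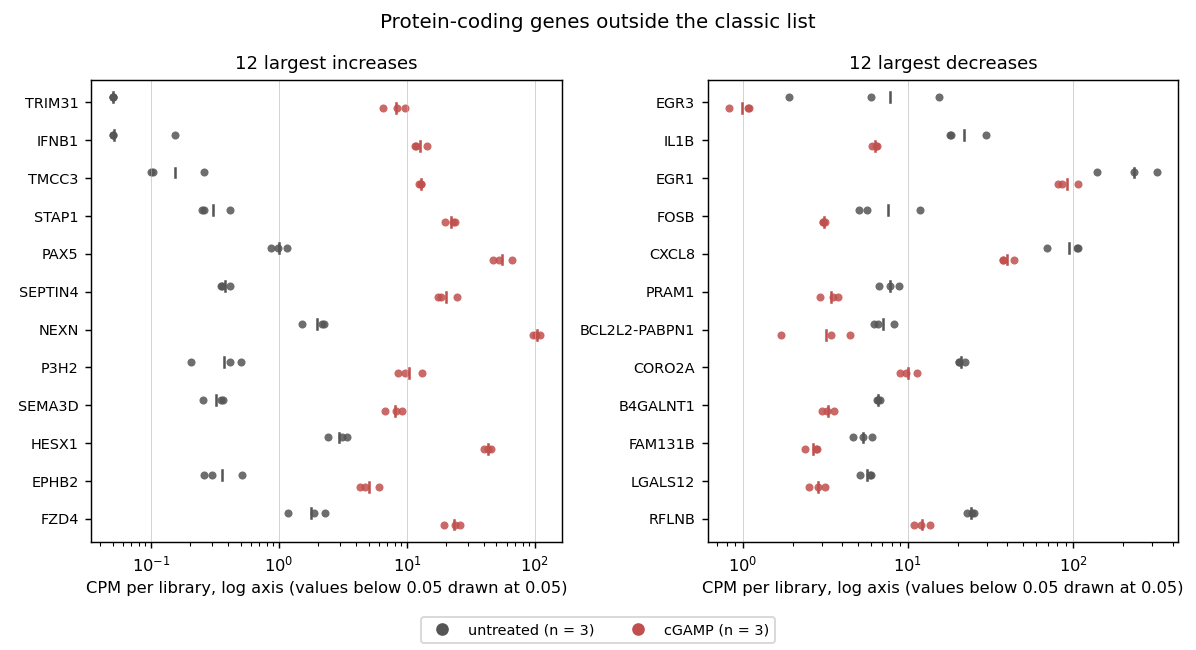
Level in CPM of each library (points) and group mean (ticks) on a log axis for the 12 largest increases and 12 largest decreases among protein-coding genes outside the classic list, untreated in grey and cGAMP in red. Libraries that do not overlap were a condition of the choice in both panels, and the gaps are wide for the increases. Untreated EGR3, EGR1 and FOSB spread widely, and EGR3 has an untreated library at 1.91 CPM near the cGAMP libraries.

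Among genes that reached at least 100 CPM with cGAMP, examples chosen after their values were seen show how far the response extends into abundant messages. SHISA5, an endoplasmic reticulum protein tied to cell death, went from 99.5 to 425 CPM on average (log2 change 2.09). CHMP5, a subunit of the ESCRT-III membrane scission machinery, went from 87.7 to 304 CPM (1.79), and DYNLT1, a dynein light chain, from 32.1 to 158 CPM (2.30). XRN1, the main cytoplasmic 5′ to 3′ exonuclease of mRNA decay, went from 60.9 to 217 CPM (1.83). IL4I1, an amino acid oxidase of macrophages, went from 32.2 to 135 CPM (2.07). Some of these genes, such as SHISA5, are known to respond to interferon in other cells, so the edge of the classic list is a choice and not a boundary found in the data.

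Of 30 tested cytokine and growth factor genes, 5 were called higher (16.7%) and 3 lower (10%), close to the 10.6% and 11.9% over all tested genes outside the classic list (median log2 change 0.03, against −0.05 over all tested genes). Both of these overall shares are the background for the lists below. IL1RN, which encodes the secreted antagonist of the interleukin-1 receptor, rose from 12.2, 17.5 and 16.0 CPM to 120, 130 and 154 CPM (log2 change 3.15 ± 0.18, adjusted p = 3.42e-10). IL1B, the agonist of the same receptor, fell from 29.6, 18.0 and 18.1 CPM to 6.37, 6.09 and 6.48 CPM (−1.80 ± 0.33, adjusted p = 0.000723). Every cGAMP library was above every untreated one for IL1RN and below for IL1B. Such separation, in either direction, held for 7316 of 16628 tested genes (44%). The decoy receptor gene IL1R2 rose as well, from 1.31, 1.08 and 1.14 CPM to 2.49, 3.85 and 4.68 CPM (1.64 ± 0.28), and so did IL1RAP, the shared accessory chain (0.60 ± 0.09). IL18, a related cytokine, was at 16.3, 18.8 and 20.9 CPM untreated and at 15.5, 14.3 and 14.4 CPM with cGAMP (−0.34, adjusted p = 0.0925), and was called lower when only the groups compared were fitted or with the GC offset (0.0236 and 0.03). TNFSF15, which binds death receptor 3, and CSF1, the macrophage growth factor, changed by 2.87 and 1.84, and both were higher still at 50 μM chlorquinaldol. TNF did not pass the test, at 57.0, 73.8 and 91.0 CPM untreated and 48.0, 46.4 and 50.7 CPM with cGAMP (−0.61, adjusted p = 0.0695), and it did when untreated replicate 1 or the third 50 μM chlorquinaldol library was left out (0.0456 and 0.00949), when only the groups compared were fitted (0.000316), with no filter (7.41e-08) or with upper-quartile factors (0.0483). IL6 and IL10 stayed at or below 0.259 CPM in all 6 libraries and were not tested.

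Chemokine genes moved both ways, with 7 of 20 tested called higher (35%) and 3 lower (15%), against 10.6% and 11.9% overall (median 0.27). The 3 that fell, CXCL8, CXCL1 and CXCL3, are ligands of CXCR2 that draw neutrophils. CXCL8 went from 106, 69.8 and 106 CPM to 44.0, 37.8 and 37.6 CPM (−1.24 ± 0.20, adjusted p = 0.000242), CXCL1 from 4.37, 2.31 and 3.11 CPM to 0.828, 1.12 and 1.04 CPM (−1.71 ± 0.44) and CXCL3 by −2.30 ± 0.64. CXCR2 itself fell from 23.3, 21.4 and 21.1 CPM to 12.5, 13.5 and 10.6 CPM (−0.85 ± 0.11, adjusted p = 1.89e-05), a call lost in the 3 limma fits on FPKM (0.0557, 0.0694 and 0.161). CCL5, CCL4 and CCL3, chemokine genes whose products draw monocytes and T cells, rose. CCL5 went from 88.6, 91.7 and 99.0 CPM to 209, 230 and 281 CPM (1.36 ± 0.13, adjusted p = 5.39e-07), CCL4 changed by 2.24 ± 0.54 and CCL3 by 0.83 ± 0.27. The calls of CCL3, CXCL1 and CXCL3 were not stable: CCL3 missed the threshold with a replicate block (adjusted p = 0.054), in DESeq2 (0.0771) and in the 3 limma fits on FPKM (0.0506 to 0.168). CCL3 also missed the threshold without untreated replicate 1 or 2 or cGAMP replicate 1 or 3 (adjusted p = 0.155, 0.11, 0.0703 and 0.0984), CXCL1 without replicate 1 of either group (0.054 and 0.0509), and CXCL3 without replicate 1 of either group or cGAMP replicate 2 (0.102, 0.0793 and 0.0617). With limma over all FPKM genes, CXCL1 and CXCL3 were not called (0.0641 and 0.113). CCL3 and CCL4 have near-identical copies, CCL3L3 and CCL4L2, which were also called higher and may share reads with them. At 50 μM chlorquinaldol CXCL8 averaged 3260 CPM and IL1B 533 CPM, against untreated means of 94.1 and 21.9 CPM.

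Of 27 tested chemoattractant receptor genes 7 were called higher (25.9%) and 4 lower (14.8%), against 10.6% and 11.9% overall. CCR1, the receptor for CCL3 and CCL5, went from 118, 125 and 142 CPM to 248, 242 and 287 CPM (1.01 ± 0.11, adjusted p = 2.53e-06), and the complement anaphylatoxin receptor gene C3AR1, the UDP receptor gene P2RY6 and the chemerin receptor gene CMKLR1 changed by 1.23, 0.98 and 1.85. Of 40 cytokine receptor genes 11 were called higher (27.5%) and 7 lower (17.5%). CSF1R, the receptor for CSF1 that sustains monocytes and macrophages, went from 117, 114 and 115 CPM to 189, 213 and 270 CPM (0.96 ± 0.13, adjusted p = 4.18e-05). IL10RA, the ligand-binding chain for interleukin-10, changed by 1.21 ± 0.12, IL18RAP, a chain of the interleukin-18 receptor, by 4.02 ± 0.55, IL7R by 2.83 ± 0.26, and FAS, a death receptor gene, by 1.70 ± 0.23. On the other side IL21R changed by −1.39 ± 0.35, from 2.16, 2.10 and 1.76 CPM to 0.673, 0.694 and 0.926 CPM, and IL21R was not called with limma on log2(FPKM + 1), with or without the filter (−0.50, adjusted p = 0.0563 and 0.186).

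**Figure D4:**
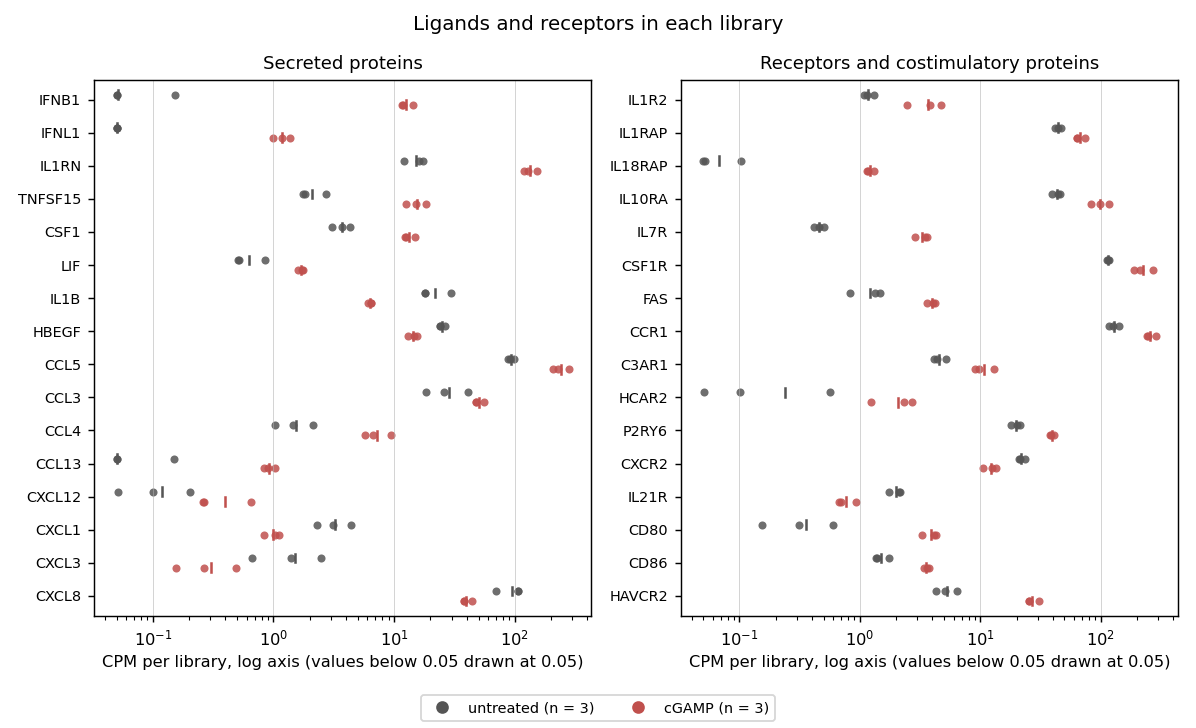
Level in CPM of each library (points) and group mean (ticks) on a log axis for genes of secreted proteins (left) and of receptors and costimulatory proteins (right), untreated in grey and cGAMP in red. IL1RN and the CCL genes lie higher with cGAMP, whereas IL1B, CXCL1, CXCL3, CXCL8 and CXCR2 lie lower.

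Genes of costimulation and immune checkpoints showed 13 of 31 called higher (41.9%) and 2 lower (6.45%), against 10.6% and 11.9% overall (median log2 change 0.28). CD80, a ligand of the T cell receptors CD28 and CTLA-4, went from 0.603, 0.154 and 0.311 CPM to 4.30, 3.26 and 4.14 CPM (3.42 ± 0.40, adjusted p = 5.6e-06), and its relative CD86 changed by 1.25 ± 0.18. HAVCR2, which encodes the checkpoint receptor TIM-3, rose from 4.32, 5.07 and 6.42 CPM to 25.3, 25.4 and 30.6 CPM (2.36 ± 0.15). CD47, the signal that holds off phagocytosis, rose from 54.5, 49.4 and 47.8 CPM to 99.5, 97.1 and 96.5 CPM (0.95 ± 0.07, adjusted p = 2.24e-08). SLAMF7, LAG3, LILRB1 and PDCD1LG2 changed by 2.45, 3.40, 1.51 and 1.77. ICOSLG was among the 2 that fell (−0.76, adjusted p = 0.0102), a call lost without untreated replicate 2 or cGAMP replicate 1 (0.0554 and 0.0592) or with limma over all FPKM genes (0.0752).

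Scavenger, lectin and Fc receptor genes showed 16 of 36 called higher (44.4%) and 1 lower (2.78%), against 10.6% and 11.9% overall (median 0.23). MSR1, a scavenger receptor for modified lipoproteins, rose from 5.28, 5.07 and 7.25 CPM to 23.6, 21.4 and 22.5 CPM (1.94 ± 0.18, adjusted p = 3.58e-07). CD209, the pathogen lectin DC-SIGN, went from 33.1, 32.9 and 32.5 CPM to 56.4, 68.8 and 76.6 CPM (1.03 ± 0.11). SCARB2, a receptor of the lysosome membrane, rose from 106, 98.9 and 113 CPM to 202, 203 and 218 CPM (0.97 ± 0.07). CD163, the hemoglobin scavenger receptor, changed by 0.99 ± 0.15. FCAR, the receptor for immunoglobulin A, was the member that fell (−0.83 ± 0.18). The LILR and FCGR2 genes are close copies of each other and may share reads. MHC class II genes had 2 of 15 called higher (13.3%) and 1 lower (6.67%). HLA-DRA, at 6.13, 6.05 and 5.59 CPM untreated and 6.68, 6.73 and 5.88 CPM with cGAMP, did not pass the test (0.12, adjusted p = 0.53).

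Signaling genes upstream and downstream of interferon moved unevenly. Of 29 STING pathway and DNA sensing genes outside the classic list, 2 were called higher (6.9%) and 10 lower (34.5%), against 10.6% and 11.9% overall. All 10 decreases were under 1.5-fold. With the GC offset 2 were called higher and 7 lower. The kinase genes TBK1 and IKBKE changed by 0.50 ± 0.08 and 0.75 ± 0.13. STING1, at 239, 259 and 239 CPM untreated and 199, 224 and 213 CPM with cGAMP, did not pass the test (−0.21, adjusted p = 0.0601). STING1 was called lower with upper-quartile factors (0.0261), with the 5 CPM filter (0.0489) and with limma on log2(FPKM + 1) or log2(FPKM + 0.1) (0.0259 and 0.0278). Of 33 JAK-STAT genes outside the list 4 were called higher (12.1%) and 7 lower (21.2%). JAK2, a kinase of many cytokine receptors, rose from 40.1, 42.2 and 39.5 CPM to 137, 131 and 137 CPM (1.73 ± 0.10, adjusted p = 4.89e-10), and IRF2, an antagonist of IRF1 at shared sites, from 36.9, 30.3 and 35.1 CPM to 78.1, 71.4 and 83.8 CPM (1.19 ± 0.10). SOCS3, a feedback inhibitor of interleukin-6 type signaling, fell from 7.44, 8.20 and 9.88 CPM to 5.02, 4.70 and 5.45 CPM (−0.75 ± 0.18, adjusted p = 0.00673). Among 34 NF-kB subunit and inhibitor genes 6 were called higher (17.65%) and 1 lower (2.94%). N4BP1, an inhibitor of cytokine induction, changed by 1.24 ± 0.09 and the deubiquitinase gene CYLD by 0.65 ± 0.08. The usual NF-kB feedback genes NFKBIA and TNFAIP3 overlapped between the groups (log2 change near 0, with a sign that turned with the setting, and 0.35, adjusted p = 0.993 and 0.221). TNFAIP3 was called higher with no filter (0.000712), when only the groups compared were fitted (0.00884) and without the first 50 μM chlorquinaldol library (0.0289).

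Immediate early genes answer growth factor signals through MAP kinases. They had 3 of 35 called higher (8.57%) and 6 lower (17.1%), near the overall 10.6% and 11.9%. EGR1 went from 139, 235 and 323 CPM to 107, 85.9 and 80.8 CPM (−1.35 ± 0.29, adjusted p = 0.0025), and EGR3 from 1.91, 5.95 and 15.4 CPM to 0.828, 1.07 and 1.09 CPM (−2.95 ± 0.60, adjusted p = 0.00177). The untreated libraries differed among themselves by more than the cGAMP libraries for both genes, with untreated replicate 3 the highest and replicate 1 the lowest. FOSB likewise stood at 5.08, 5.69 and 11.9 CPM untreated and at 3.16, 3.04 and 3.05 CPM with cGAMP (−1.29 ± 0.27). FOSB was not called in the 3 limma fits on FPKM (adjusted p = 0.0705 to 0.257, with changes of −0.74 to −0.50), and EGR1 and EGR3 were not called in the limma fit over all FPKM genes (0.0593 and 0.16). ATF3, a stress-induced repressor of inflammatory genes, rose from 7.39, 7.02 and 9.11 CPM to 24, 26.8 and 38.7 CPM (1.93 ± 0.27, adjusted p = 5.57e-05).

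Other genes among the largest decreases were lower by close to 2-fold. CORO2A, an actin-binding coronin, went from 22.2, 20.3 and 20.4 CPM to 9.01, 9.77 and 11.4 CPM (−1.06 ± 0.12, adjusted p = 4.55e-06). PRAM1, an adaptor of myeloid cells, fell by 1.18 on the log2 scale, LGALS12, a galectin, by 1.00 and RFLNB, a filamin regulator, by 0.99. CORO2A, PRAM1, LGALS12 and RFLNB averaged 10.6, 2.63, 0.949 and 9.88 CPM at 50 μM chlorquinaldol, below their untreated means of 21.0, 7.77, 5.67 and 24.1 CPM. Of the same 12 genes, B4GALNT1, a ganglioside synthase gene, BCL2L2-PABPN1, a readthrough gene, and FAM131B averaged 41.8, 14 and 8.73 CPM at that dose, above their untreated means of 6.59, 7.02 and 5.36 CPM. The cGAMP call of B4GALNT1 was lost in the 3 limma fits on FPKM (adjusted p = 0.0582 to 0.243) and that of FAM131B in the limma fit over all FPKM genes (0.0637).

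Myeloid transcription factor genes had 15 of 48 called higher (31.25%) and 6 lower (12.5%), against 10.6% and 11.9% overall. TFEC, a factor of the MITF family found in macrophages, rose from 63.3, 56.6 and 56.0 CPM to 157, 144 and 142 CPM (1.33 ± 0.11, adjusted p = 3.29e-08). TCF4, a factor of plasmacytoid dendritic cells, rose from 3.57, 3.02 and 3.00 CPM to 11.1, 11.6 and 10.2 CPM (1.77 ± 0.17), and BATF3, a factor of cross-presenting dendritic cells, changed by 1.17 ± 0.25. With limma over all FPKM genes TCF4 and BATF3 were not called (adjusted p = 0.13 and 0.057). NFE2 and CEBPE, factors of erythroid, megakaryocytic and granulocytic maturation, changed by −0.93 ± 0.20 and −0.91 ± 0.25, and CEBPE missed the threshold without cGAMP replicate 1 (adjusted p = 0.0692) or with limma over all FPKM genes (0.0571).

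Cell death genes had 7 of 32 called higher (21.9%) and 3 lower (9.38%), against 10.6% and 11.9% overall. Inflammasome genes had 7 of 22 called higher (31.8%) and 3 lower (13.6%). CASP10, an initiator caspase gene, rose from 19.8, 18.9 and 18.4 CPM to 40.0, 41.9 and 44.3 CPM (1.14 ± 0.11, adjusted p = 3.98e-07). GSDMD, the pore-forming effector of pyroptosis, rose from 56.1, 58.9 and 56.4 CPM to 91.0, 99.5 and 105 CPM (0.79 ± 0.08, adjusted p = 1.73e-06). The anti-apoptotic gene MCL1 changed by 0.52 ± 0.10 and the necroptosis kinase gene RIPK1 by 0.76 ± 0.11. NLRP3, the inflammasome sensor, did not pass the test (−0.17, adjusted p = 0.171).

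Of 35 genes of amino acid, NAD and nucleotide metabolism 7 were called higher (20%) and 6 lower (17.1%), against 10.6% and 11.9% overall. Of 27 glycolysis genes 2 were called higher and 2 lower (7.41% each). NAMPT, the rate-limiting enzyme of NAD salvage, rose from 54.4, 50.1 and 58.3 CPM to 170, 151 and 162 CPM (1.57 ± 0.13, adjusted p = 9.23e-08). KMO, an enzyme of the kynurenine route from tryptophan, rose from 2.11, 2.00 and 1.97 CPM to 7.87, 5.61 and 6.15 CPM (1.69 ± 0.19), and KYNU, the next enzyme of that route, changed by 0.60 ± 0.13. SAT1, which acetylates polyamines for export, rose from 56.0, 49.6 and 67.7 CPM to 154, 148 and 175 CPM (1.46 ± 0.12). Of 27 cholesterol genes 1 was called higher (3.70%) and 4 lower (14.8%). The higher call was STARD4, a cytosolic sterol carrier, from 114, 117 and 128 CPM to 251, 213 and 232 CPM (0.96 ± 0.08, adjusted p = 1.55e-07). Of 55 oxidative phosphorylation genes 4 were called higher (7.27%) and 0 lower. Ribosome biogenesis had 1 higher (2.22%) and 2 lower (4.44%) of 45.

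Of 38 constitutive proteasome genes 8 were called higher (21.05%) and 1 lower (2.63%), against 10.6% and 11.9% overall (median 0.08). Genes of alpha-ring subunits were among the higher calls. PSMA4 rose from 155, 159 and 166 CPM to 384, 374 and 395 CPM (1.26 ± 0.07, adjusted p = 4.09e-10), PSMA3 changed by 0.85 ± 0.10 and PSMA2 by 0.59 ± 0.09. POMP, which assembles the proteasome, changed by 0.61 ± 0.10. DNAJA1, an HSP70 co-chaperone, rose from 154, 153 and 148 CPM to 329, 293 and 296 CPM (1.01 ± 0.08). Of 36 ubiquitin pathway genes outside the classic list 13 were called higher (36.1%) and 8 lower (22.2%). USP15 and USP25, both deubiquitinases, changed by 1.12 and 1.07.

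Cell cycle genes changed by small amounts. Of 52 S phase genes 2 were called higher (3.85%) and 8 lower (15.4%), against 10.6% and 11.9% overall. Of 46 mitosis genes 1 was called higher (2.17%) and 8 lower (17.4%). With the GC offset the lower calls were 5 in each list. UHRF1, which maintains DNA methylation at replication, went from 79.1, 84.6 and 71.4 CPM to 53.6, 59.1 and 52.1 CPM (−0.51 ± 0.11, adjusted p = 0.002), and CDCA8, a chromosomal passenger gene, changed by −0.51 ± 0.08. BRCA2, the homologous recombination mediator, went the other way, from 18.3, 19.9 and 16.4 CPM to 50.2, 41.3 and 43.5 CPM (1.31 ± 0.10, adjusted p = 2.82e-08).

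**Figure D5:**
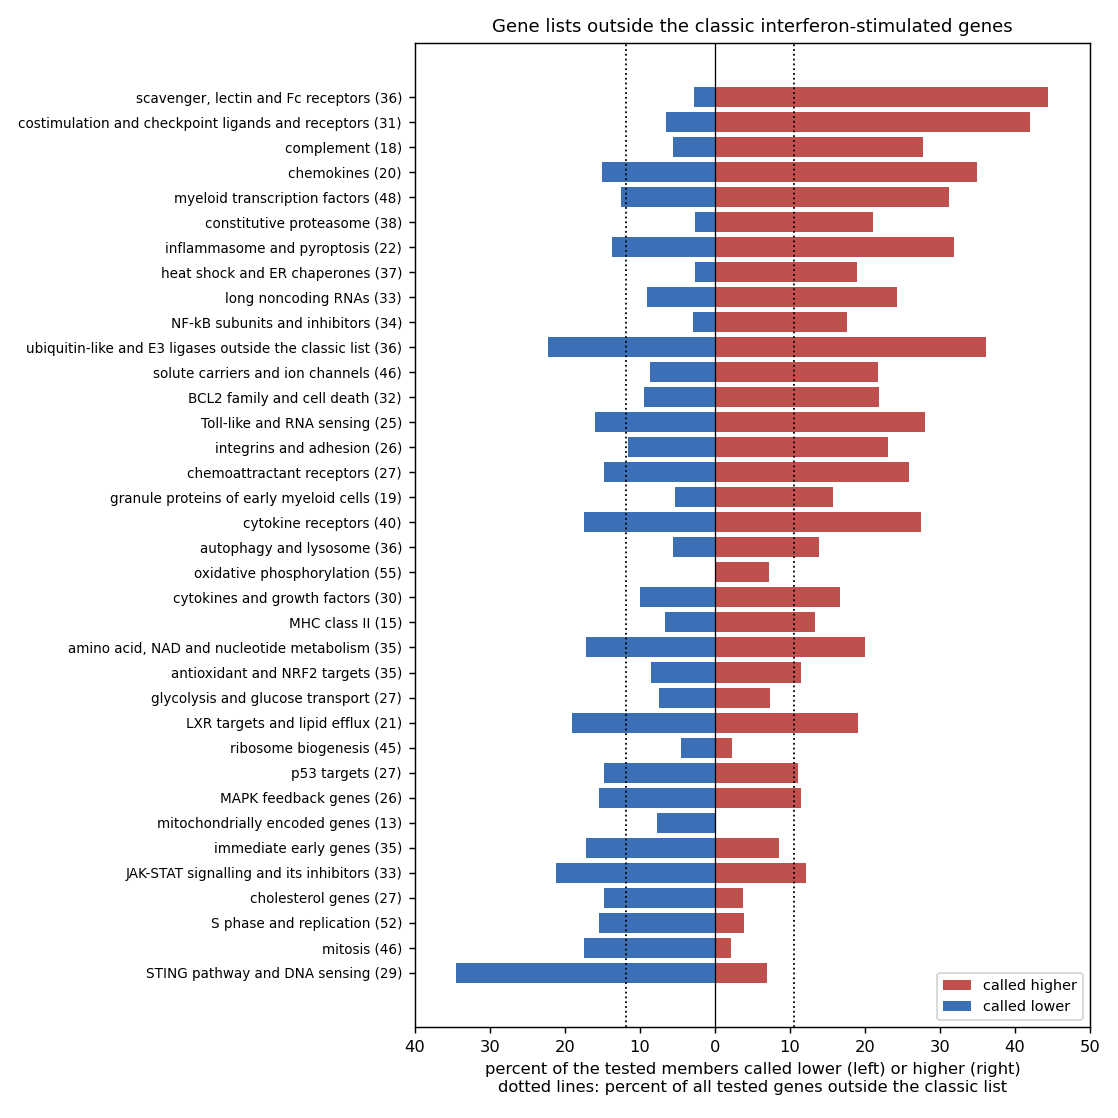
Percent of the tested members of each gene list (number in brackets) called higher (right, red) or lower (left, blue) with cGAMP, with dotted lines at 10.6% and 11.9%, the shares over all tested genes outside the classic list. Scavenger and costimulation lists reach 44.4% and 41.9% called higher. The STING pathway list has 34.5% called lower. Mitosis and S phase lists, at 17.4% and 15.4% lower, are nearer the dotted line. With the GC offset the lower calls of these lists were fewer.

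Long noncoding genes made up 155 of the higher and 109 of the lower calls out of 1994 tested, shares of 7.77% and 5.47% that lie below the 11.6% and 11.8% over all tested genes. Of the higher calls 70 rose and of the lower calls 22 fell at least 2-fold. IRF1-AS1, an antisense gene at the IRF1 locus on chromosome 5 (132410636 to 132488702), rose from 4.17, 4 and 4.61 CPM to 19.7, 23.7 and 26.7 CPM (2.45 ± 0.13, adjusted p = 1.37e-10). BISPR, which lies head to head with the antiviral gene BST2 at a distance of 38 bases on chromosome 19, rose from 7.79, 7.64 and 8.38 CPM to 41.3, 41.0 and 46.1 CPM (2.43 ± 0.12). CHROMR, a noncoding RNA tied to cholesterol efflux, rose from 9.15, 10.3 and 10.2 CPM to 44.9, 40.4 and 37.9 CPM (2.06 ± 0.11). Of the 70, 23 (32.86%) lay within 10 kb of a protein-coding gene that was at least 2-fold higher, compared with 63 of all 1994 tested long noncoding genes (3.159%). Of these, 12 overlapped such a gene, on the opposite strand in each case, and since the strand of counting is not given, reads of the partner genes cannot be told apart there. Among noncoding genes of at least 5 CPM with libraries that do not overlap, the largest decreases were those of MIR23AHG, from 12.2, 17.3 and 22.4 CPM to 7.3, 9.29 and 7.84 CPM (−1.09 ± 0.18, adjusted p = 0.000227, and 0.0841 with limma over all FPKM genes), and of BAIAP2-DT, from 43.4, 42.3 and 39.0 CPM to 18.3, 22.9 and 21.8 CPM (−0.99 ± 0.10, adjusted p = 5.25e-07).

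Some genes stood furthest above the drug with cGAMP. UNC5C, a netrin receptor gene, averaged 0.239 ± 0.233 CPM in untreated cells and 3.27 ± 0.274 CPM with cGAMP, and 0.0171 and 0 CPM at 20 and 50 μM chlorquinaldol. LINC03023, an intergenic RNA gene, averaged 13.8 ± 0.949 CPM untreated and 43.1 ± 2.33 CPM with cGAMP (1.64 ± 0.14, adjusted p = 1.13e-07), and 1.17 and 0.524 CPM at the drug doses. Both genes were among the 5 with the largest difference between cGAMP and 50 μM chlorquinaldol, as were IFNB1 and IFNL1, so this order is a description.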

How the data were processed

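Gene tables of 12 libraries were used, with 62914 entries each. The estimated counts and FPKM were made with RSEM against GRCh38 before the authors deposited them, per the submitters' processing notes, which also name DESeq2 1.26.0 for tests not used here. Per the labels' protocols, oligo(dT) selection preceded sequencing (BGI DNBSEQ). The RSEM version, annotation and strand setting are not given in the sources used here. Counts were rounded, and 326 unannotated entries (at most 0.29% of counts) stayed out of the tests.

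Ensembl genes that passed filterByExpr at a minimum count of 10 entered 1 edgeR 4.0.16 quasi-likelihood model (R 4.3.3) of 12 libraries and 4 groups with TMM factors. Calls have a Benjamini-Hochberg adjusted p below 0.05 over 16628 genes. Changes are log2 ± SE, the SE being the change over the square root of F, and levels are CPM on TMM-scaled library sizes. Positions and GC content come from GENCODE 29. With 3 against 3, an exact test of 1 value cannot go below 0.1. On simulated counts for this comparison (16258 genes), 83.6% of 2-fold and 50.7% of 1.5-fold changes were recovered, with 4.5% false calls. The simulation changed 67, 67 and 66 genes by 1.5-, 2- and 4-fold. All other genes had 1 mean level in every library, with no GC trend. The 4.5% is therefore not the false-call rate of the real comparison, which has many more calls and such a trend.

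Members and gene lists were chosen with earlier results of these data known. Named genes are the 12 largest protein-coding and 6 largest other increases and decreases outside the classic list (at least 5 CPM, libraries not overlapping), up to 4 members with the smallest p per list, a panel of 16 genes, up to 5 genes at 0 counts in untreated cells, and 5 genes furthest above 50 μM chlorquinaldol. Other members are examples picked after their values were seen. Some genes the rule brings in are not reported here. The fit was repeated with each library left out, with the replicate number as a block, with only the untreated and cGAMP libraries, without the filter or with at least 5 CPM in 3 libraries, with upper-quartile or RLE factors, at an adjusted p below 0.01, in DESeq2 1.42.0, and in limma 3.58.1 on the deposited FPKM as log2(FPKM + 0.1) or log2(FPKM + 1), the latter also without a filter. A GC offset, a robust loess per library, was chosen after the data were seen.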

Additional observations from a re-analysis of the deposited data

How the results depend on the processing

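The count of higher calls (1921) was 1263 with limma on log2(FPKM + 1), 1247 with log2(FPKM + 0.1) and 1085 over all FPKM genes. Lower calls (1954) were 953 over all FPKM genes and 871 at an adjusted p below 0.01, and 858 to 1555 with 1 library left out. The count at least 2-fold higher (617) was 369 with 5 CPM in 3 libraries, 333 with log2(FPKM + 1) and 330 over all FPKM genes. The count at least 2-fold lower (104) was 25, 11 and 8 under these and 48 at the stricter p. The count above all 3 other groups (960) stayed within 673 to 1252 under all 24 alternatives. With 1 library left out, the other counts were 1515 to 2414 higher, 586 to 695 at least 2-fold higher, 74 to 100 at least 2-fold lower and 828 to 1106 above all other groups. The cause of these shifts was not tested, and the 5 CPM filter leaves out genes of low level by design. A replicate block gave 1842 higher, 1777 lower, 615 and 97 at least 2-fold, and 941 above all other groups. Deviations of same-numbered libraries from their group means correlated by −0.027 to 0.045. Such correlations over all genes cannot decide whether libraries of the same number share a culture or day, and the labels do not say.

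With the GC offset, lower calls went from 6 to 3 for myeloid transcription factors and from 8 to 3 for ubiquitin pathway genes, and higher calls from 3 to 6 for immediate early genes and from 4 to 9 for oxidative phosphorylation.

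Of 123 genes named, 115 were called, and 98 of these kept their direction and call under every setting that tested them, while 17 lost the call under at least 1. The cause was not tested. Among uncalled genes the sign turned for 1: NFKBIA stood at 0.01 with RLE factors or DESeq2, 0.04 with no filter or only the groups compared, 0.02 with the block, 0.09 with the GC offset and −0.13 to 0.09 with 1 library left out. Depth limited the near-silent genes, and a total change in RNA per cell cannot be seen after scaling.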

Other observations

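RPL22P1, a processed pseudogene of a ribosomal protein gene, had the highest fitted increase outside the classic list, yet it stood at 8.08 and 6.36 CPM in cGAMP replicates 1 and 2 and at 0 CPM in replicate 3 and in all 3 untreated libraries, and DESeq2 did not call it (adjusted p = 0.121). ENSG00000288076, a gene with no symbol in the tables, rose from 0.0503, 0.103 and 0.0518 CPM to 13.5, 15.9 and 19.8 CPM (log2 change 7.78, adjusted p = 1.036e-12). AP-1 motifs, searched as TGANTCA on both strands, occurred in the promoter windows of 19.8% of 106 genes at least 4-fold higher outside the classic list, 14.2% of 106 classic genes at least 2-fold higher and 7.1% of all tested genes with a window. Over all RefSeq genes with a window the share was 9.37%, and counted by window it was 7.71%. Counts of the 326 unannotated entries made up 0.255%, 0.205% and 0.205% of the untreated libraries and 0.219%, 0.29% and 0.225% of the cGAMP libraries, and these overlapped.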
